A study of Mus musculus with 4 samples.

Results

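The response to injected tumour necrosis factor (TNF) that was common to the cell types of the wild-type mouse spleen was described here by setting 1 TNF library against 1 PBS library. Both were single-cell RNA libraries from spleens of C57BL/6 mice 10 weeks old, taken 4 h after an intravenous injection of 100 ul holding 9 ug of recombinant murine TNF or PBS alone. Red cells had been lysed and dead cells removed with magnetic beads, and the number of mice behind each library is unknown here. The other libraries of the series came from mice labelled TRIF-KO, of the same age and under the same injections, and were used only as a second TNF and PBS pair. A cell barcode was kept when it had 200 or more genes and when no more than 10% of its UMIs (unique molecular identifiers, each standing for 1 captured molecule) were mitochondrial. This gave 2502 PBS and 5254 TNF cells, 7756 of the 20476 kept in the whole series. Of these, 6388 were assigned by RNA markers to B, T and NK cells (the lymphoid lineages) or to neutrophils, monocytes and macrophages, and dendritic cells (the myeloid lineages). With 1 library per group there is no replicate: treatment, library and the mice used cannot be told apart, no p-value was computed, and each interval covers counting error only.

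TNF binds TNF receptor 1, found on most cell types, and TNF receptor 2, found mainly on immune cells. Receptor 1 recruits adaptor and ubiquitin-modifying proteins that release NF-kB transcription factors from their inhibitors of the IkB family. NF-kB then switches on genes of inflammation and survival together with its own inhibitors, so that the response limits itself. The spleen holds mostly lymphocytes, with fewer neutrophils, monocytes, red-pulp macrophages and dendritic cells, and systemic TNF reaches all of them through the blood.

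UMIs were summed per lineage and scaled to the lineage's total as CPM (UMIs per 1000000). A gene was called higher or lower in a lineage where the TNF to PBS ratio was at least 2-fold, or 1 on the log2 scale, with a 95% interval that did not cover equality. A shared gene was called in the same direction in at least 2 lymphoid and at least 2 myeloid lineages and in the other direction in none. Of 1987 genes measured well enough in both compartments, 13 were shared higher (0.654%) and 13 were shared lower (0.654%). The shared higher genes were Rbm3, Tnfaip3, Nfkbia, Relb, Cirbp, Sdhaf1, Birc3, Rgs1, Gbp5, Arap2, Bcl2l11, Mapkapk2 and the predicted gene Gm2000. The shared lower genes were Dnaja1, Dynll1, Rsrp1, Stk38, Chordc1, Rasgrp2, Akna, Glipr1, Add3, Bin2, Ahnak, Setd1b and Tsc22d4. These counts are counts of sizes, not tests, and the values below that chose the genes are given as a description.

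The promoters of 2 shared higher genes are shown because both genes encode inhibitors of NF-kB that NF-kB itself is known to induce. Each run is the 250 bases before the RefSeq start (GRCm38.p6, read 5' to 3' on the gene's strand, chr12:55492648-55492897 for Nfkbia and chr10:19011964-19012213 for Tnfaip3, both on the minus strand), none of which lies in a GENCODE M21 exon. Capitals mark the match to the kappaB consensus, the sequence that NF-kB dimers bind.
Nfkbia: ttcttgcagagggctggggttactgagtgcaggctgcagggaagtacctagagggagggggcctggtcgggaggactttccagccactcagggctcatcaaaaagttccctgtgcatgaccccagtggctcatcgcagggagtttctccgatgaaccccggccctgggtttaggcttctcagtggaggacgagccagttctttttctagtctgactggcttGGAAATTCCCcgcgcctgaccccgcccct
Tnfaip3: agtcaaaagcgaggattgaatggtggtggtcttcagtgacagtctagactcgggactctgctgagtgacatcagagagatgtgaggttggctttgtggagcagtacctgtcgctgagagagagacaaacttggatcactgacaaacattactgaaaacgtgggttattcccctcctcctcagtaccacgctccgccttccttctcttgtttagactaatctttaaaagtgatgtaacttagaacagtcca
The match in Nfkbia, GGAAATTCCC, lies 29 to 20 bases before the start. The same letters stand 77 to 68 bases before the start of Gbp5, and no match was found in this window of Tnfaip3. Of the 26 shared genes 18 had an entry. A kappaB match stood in 2 of 9 shared higher and 1 of 9 shared lower promoters (Rasgrp2), against 7.07% of all 27025 promoters searched on both strands. The letters TCCCCGCC are known from the promoter of Cirbp as a cold-response element, so their match in Cirbp was fixed in advance. They also stood in Arap2, a shared higher gene, and Rasgrp2, a shared lower gene, against 4.61% of all promoters. The heat-shock element stood in none of the 18 and in 0.403% of all promoters. Some of the other windows overlap GENCODE M21 exons, by 250 bases in Sdhaf1, 218 in Dnaja1, 142 in Chordc1 and 130 in Dynll1. These matches are a description of letters and not of binding.

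Inhibitors and subunits of NF-kB made up the first group of shared higher genes, and it was called in T and NK cells and in the myeloid lineages but not in B cells. Nfkbia encodes IkB-alpha, which holds NF-kB in the cytoplasm. Its level in the PBS and TNF libraries was 257 and 238 CPM in B cells, 193 and 593 in T cells, 201 and 906 in NK cells, 466 and 2699 in neutrophils, 339 and 1722 in monocytes and macrophages, and 326 and 1241 in dendritic cells. The TNF library was thus higher in 5 of 6 lineages, with log2 ratios of 1.62 in T cells (95% interval 1.51 to 1.73) to 2.53 in neutrophils (2.36 to 2.71), and in B cells the ratio was -0.11 (-0.18 to -0.03).

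Tnfaip3 encodes A20, a ubiquitin-editing enzyme that dampens TNF receptor signalling. It was read at 21.3 and 76.2 CPM in T cells, 42.5 and 212 in NK cells, 27.2 and 405 in neutrophils, 15.2 and 314 in monocytes and macrophages, and 26.6 and 109 in dendritic cells. The largest log2 ratios of Tnfaip3 were 4.37 in monocytes and macrophages (3.63 to 5.21) and 3.90 in neutrophils (3.22 to 4.64), while T cells stood at 1.84 (1.52 to 2.16). In B cells Tnfaip3 was read at 17.7 and 8.6 CPM, too low to be counted as measured there.

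Relb, the NF-kB subunit of the non-canonical pathway, showed the same pattern of lineages. It went from 29.1 to 101 CPM in T cells, 44.8 to 120.0 in NK cells, 27.2 to 229 in neutrophils, 32.3 to 178 in monocytes and macrophages and 109.9 to 497 in dendritic cells, against 60.1 and 61.1 CPM in B cells (log2 0.02, -0.13 to 0.18). Birc3, which encodes the ubiquitin ligase cIAP2 of the TNF receptor complex, was higher in T cells (log2 2.16), NK cells (2.67), neutrophils (1.81) and dendritic cells (1.88). It did not reach 2-fold in B cells (0.51) or in monocytes and macrophages (0.92). Mapkapk2, the kinase MK2 downstream of p38 that stabilises inflammatory mRNAs, went from 22.7 to 90.7 CPM in T cells and stood at log2 1.01 in NK cells, 2.68 in neutrophils and 1.59 in monocytes and macrophages. The NK value of Mapkapk2 rests on 22 and 33 UMIs (0.18 to 1.85), and its dendritic value was 0.65.

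**Figure D1:**
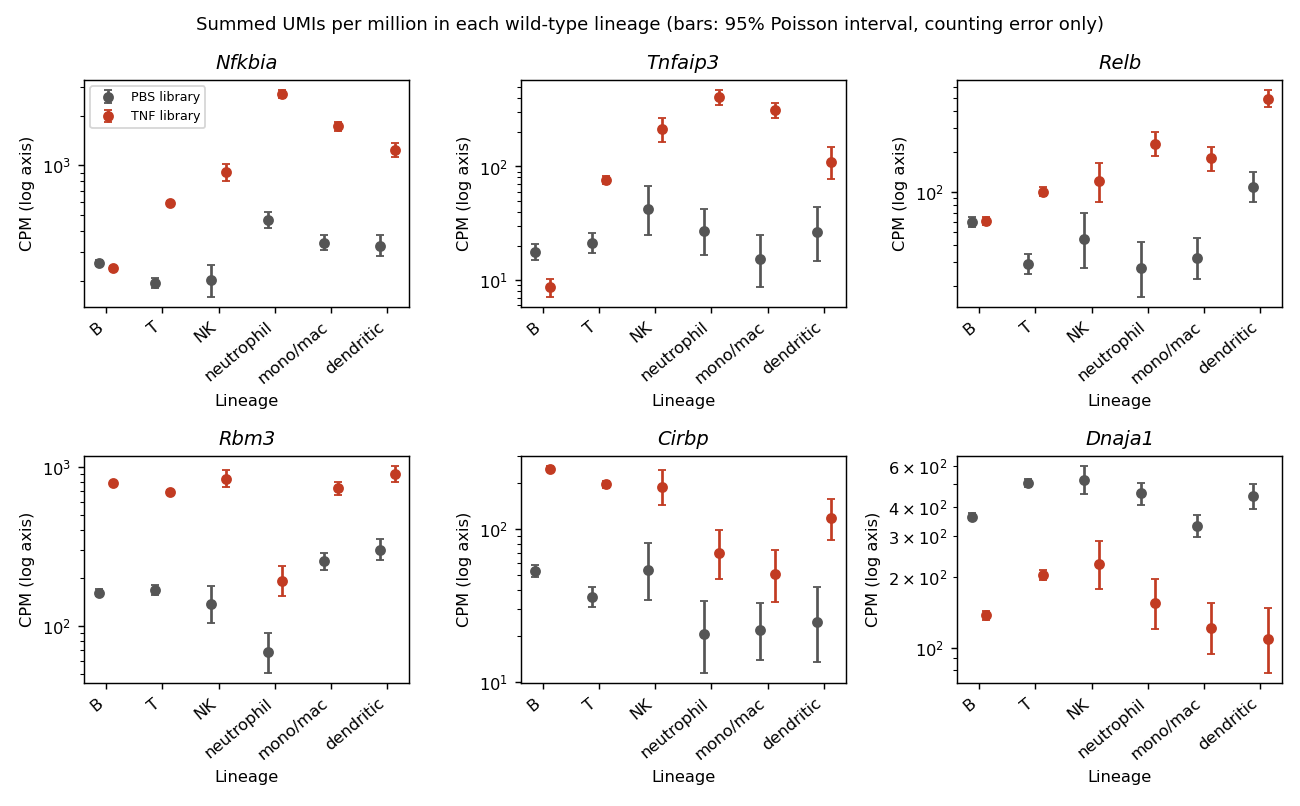
Levels of 6 shared genes in the 6 wild-type lineages, as CPM on a log axis, with the PBS library in grey and the TNF library in red; bars are 95% Poisson intervals for counting error only. Nfkbia, Tnfaip3 and Relb were higher in the TNF library in every lineage but B cells, whereas Rbm3 was higher and Dnaja1 lower in all 6.

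Nfkb2 and Socs3 missed the rule because 1 lineage went the other way; they are named after their values were seen. Nfkb2, which encodes the p100 precursor that partners with RelB, was higher in 5 lineages, from log2 1.05 in dendritic cells to 2.85 in neutrophils. In B cells Nfkb2 went from 94.5 to 46.9 CPM (-1.01, -1.16 to -0.86). Socs3, an inhibitor of cytokine receptor signalling through STAT3, was higher in B cells (6.34 and 149.9 CPM, log2 4.56), T cells (2.74), monocytes and macrophages (2.30) and dendritic cells (4.23). In neutrophils Socs3 went from 576 to 273 CPM (-1.08, -1.38 to -0.78).

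The list of 35 NF-kB targets and feedback genes, read as a whole, had the same gap between B cells and the other lineages. In B cells 15 were measured, of which 2 were higher (Bcl3, an NF-kB coactivator, and the activation marker Cd83) and 2 lower (Nfkb2 and the co-stimulatory receptor Cd40), with a median log2 of -0.12 against -0.15 over all genes measured in B cells. Among all measured B-cell genes 1.24% were higher and 1.9% lower. In T cells 8 of 17 list members were higher (median 0.66) against 3.51% of all genes, and in NK cells 9 of 14 (1.43) against 3.99%. In neutrophils 20 of 29 were higher (1.81) against 10.2% of all genes, in monocytes and macrophages 22 of 31 (2.33) against 11.2%, and in dendritic cells 18 of 21 (1.96) against 8.17%. No member was lower outside B cells. The list holds the shared higher genes Nfkbia, Tnfaip3, Relb and Birc3, which were chosen by these same ratios. Their calls are part of the counts above and are no separate result. Other members called higher were Nfkbiz, Bcl3, Nfkb2 and Map3k8 in T cells, and Nfkbiz, Bcl3, Nfkb2, Traf1 and Icam1 in NK cells. Cflar, an inhibitor of caspase-8, was a myeloid-only member of the list, at 1.29 in neutrophils, 2.25 in monocytes and macrophages and 2.28 in dendritic cells against -0.35 in B, -0.12 in T and -0.33 in NK cells.

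**Figure D2:**
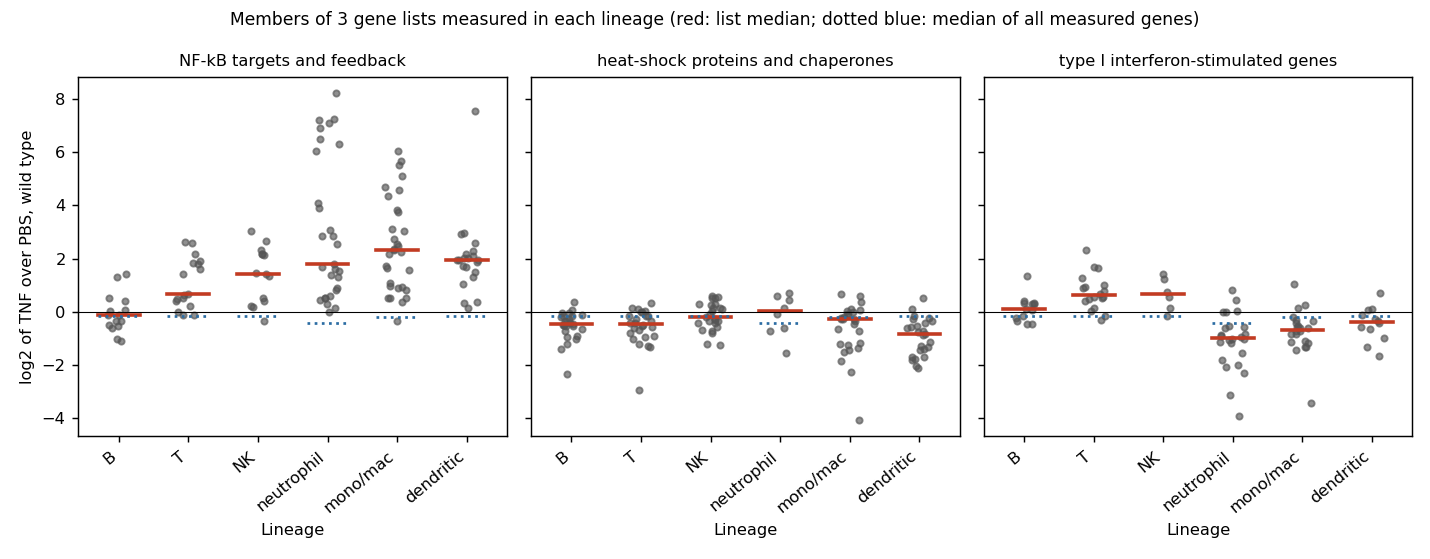
Each point is 1 measured member of a gene list in 1 wild-type lineage, placed at its log2 ratio (TNF library over PBS library); red bars are list medians and dotted blue bars the median of all measured genes. NF-kB targets sit at a median of -0.12 in B cells and at 0.66 to 2.33 in the other lineages, heat-shock members hold no gene 2-fold higher, and type I interferon genes have medians above 0 in T and NK cells and below it in the myeloid lineages.

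The TNF receptors were read at unequal levels in the same lineages. For Tnfrsf1a, TNF receptor 1, the levels were 0.340 and 0.560 CPM in B cells, 17.3 and 12.02 in T cells, 33.0 and 12.6 in NK cells, 323 and 144 in neutrophils, 163 and 103 in monocytes and macrophages and 49.6 and 30.01 in dendritic cells. B cells stood lowest, with 3 and 8 UMIs. For Tnfrsf1b, TNF receptor 2, the levels were 6.57 and 10.0 CPM in B cells, 13.8 and 21.7 in T cells, 42.5 and 53.7 in NK cells, 110.3 and 148 in neutrophils, 316 and 299 in monocytes and macrophages and 14.2 and 49.1 in dendritic cells. Neutrophil Tnfrsf1a was 2-fold lower in the TNF library (log2 -1.17), the only receptor call. Of 26 genes of TNF receptor signalling, 10 were measured in B cells with none called, while 2 of 10 in T cells and 2 of 9 in NK cells were higher (Birc3 and Tnfaip3 in both). In neutrophils 4 of 10 were higher and 2 lower, in monocytes and macrophages 3 of 14 and 1, and in dendritic cells 5 of 10 and 1. Over all genes the higher shares were 1.24% in B, 3.51% in T and 3.99% in NK cells. In the 3 myeloid lineages they were 10.2%, 11.2% and 8.17%, so the higher counts outside B cells lay above the background. The lower shares of all genes in the myeloid lineages were 27.9%, 19% and 15.7%, so the lower counts of this list lay below the background. All higher members but Casp8, called in dendritic cells, also belong to the NF-kB list above, so the 2 lists overlap in these calls. Birc3 and Tnfaip3, the only T and NK calls, were also chosen as shared genes by these same ratios.

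TLR4, the receptor of bacterial lipopolysaccharide that signals through TRIF, and its partners were read at low levels outside neutrophils, monocytes and macrophages. Ticam1, which encodes TRIF, was read at 6.64 CPM in the PBS and 3.90 CPM in the TNF library over the whole spleen, and reached 50 CPM in no lineage of either library. Cd14, the co-receptor that loads lipopolysaccharide onto TLR4, went from 252 to 4124 CPM in neutrophils (log2 4.03) and from 50.4 to 1573 in monocytes and macrophages (4.96), and had no UMI in NK and dendritic cells. Tlr4 was measured only in neutrophils, at 119.9 and 62.6 CPM (-0.94).

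Cold-inducible RNA-binding proteins formed a second group of shared higher genes, and here B cells were included. Rbm3, which binds mRNA and is known to be induced by mild cooling, was the only shared higher gene called in all 6 lineages. It was read at 161 and 789 CPM in B cells, 168 and 693 in T cells, 137 and 839.7 in NK cells, 68.1 and 192 in neutrophils, 255 and 729 in monocytes and macrophages, and 301 and 900.2 in dendritic cells. The log2 ratio of Rbm3 was largest in NK cells (2.62, 2.20 to 3.05) and B cells (2.29, 2.21 to 2.37) and smallest in neutrophils (interval 0.97 to 2.03), and each of its 3 lymphoid ratios lay above each of its 3 myeloid ratios. Cirbp, its relative, was read at 53.0 and 249 CPM in B cells (2.23), 36.0 and 196 in T cells (2.45), 54.3 and 189 in NK cells (1.80), 21.9 and 50.5 in monocytes and macrophages (1.21) and 24.8 and 117 in dendritic cells (2.24). The myeloid values of Cirbp rest on 14 to 43 UMIs per library, and Cirbp was shared under 12 of 24 alternatives tried. Srsf5, a splicing factor on the same list, was between 0.42 and 1.14 in all 6 lineages and was called in dendritic cells alone.

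Some heat-shock proteins and co-chaperones were lower, though not the list as a whole in every lineage. Dnaja1, a co-chaperone of Hsp70, was read at 364 and 138 CPM in B cells, 508 and 205 in T cells, 524 and 227 in NK cells, 458 and 155 in neutrophils, 332 and 122 in monocytes and macrophages and 445 and 109 in dendritic cells. Its log2 ratio lay between -1.20 in NK cells (-1.61 to -0.81) and -2.03 in dendritic cells (-2.55 to -1.54), a narrow range beside that of Tnfaip3. Chordc1, a co-chaperone of Hsp90, was lower in 5 lineages, from -1.01 in B cells to -1.44 in dendritic cells, and was not measured in neutrophils. Of 36 heat-shock and chaperone genes none was higher in any lineage. In B cells 4 of 26 measured were lower, in T cells 5 of 26, in NK cells 2 of 25, in neutrophils 1 of 8, in monocytes and macrophages 9 of 27 and in dendritic cells 11 of 25. The shares of all measured genes that were lower are 1.9%, 4.86%, 11.2%, 27.9%, 19% and 15.7% in the same order. The NK and neutrophil counts thus lay below the background and the B, T, monocyte/macrophage and dendritic counts above it. Dnaja1 and Chordc1 are on this list and were chosen by these same ratios, so their calls are no separate result. They were the only calls in NK cells, and Dnaja1 was the only call in neutrophils. The remaining lower members were Hsph1 and Stip1 in B cells, and Hsph1, Stip1 and Hsp90b1 in T cells. The list medians were -0.48, -0.47, -0.19, 0.02, -0.28 and -0.85, against -0.15, -0.14, -0.15, -0.42, -0.21 and -0.16 over all genes, so that in neutrophils the list lay above the other genes. Hspa8, the constitutive Hsp70, was at -0.95 in B cells and -0.90 in T cells, just short of 2-fold, and at -1.21 and -1.72 in monocytes and macrophages and in dendritic cells. Hsph1, an Hsp110 chaperone, was at -2.34 in B cells and -2.93 in T cells.

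**Figure D3:**
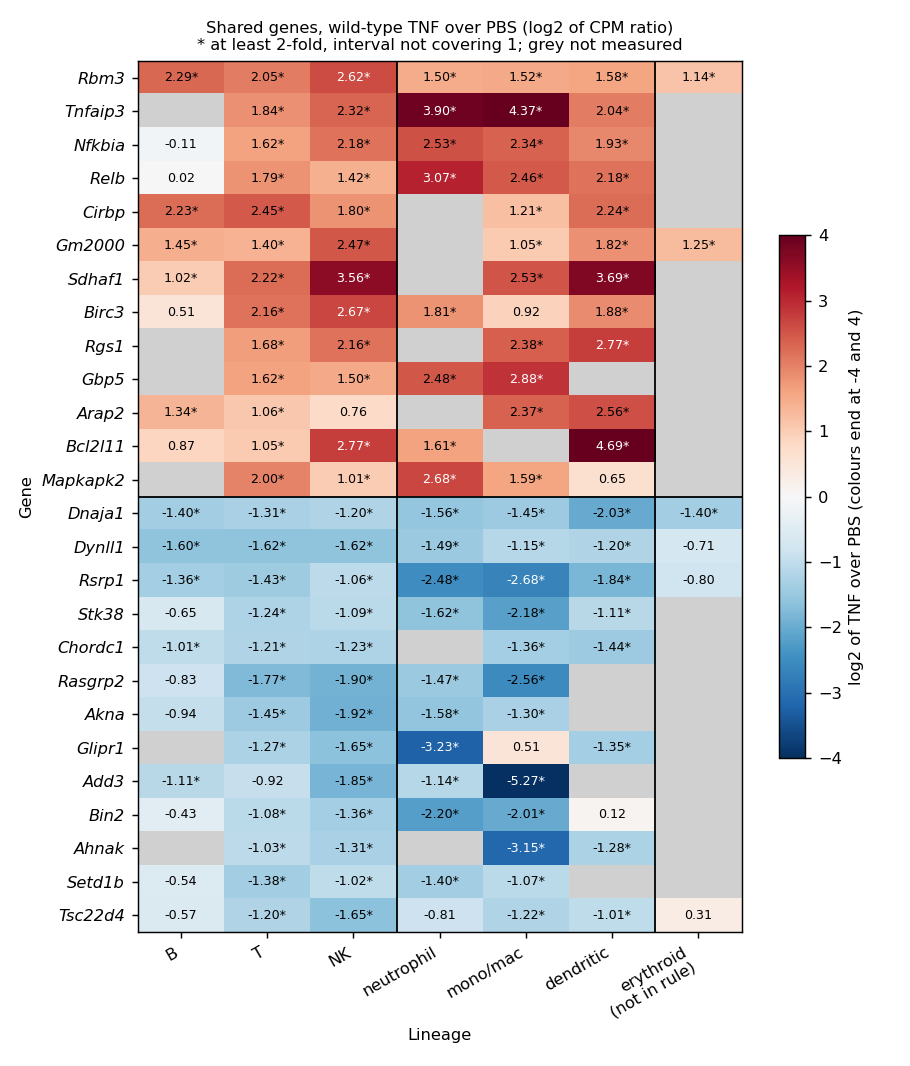
The 26 shared genes (rows) by lineage (columns), coloured by and printed with the wild-type log2 ratio of the TNF library to the PBS library; an asterisk marks a call and grey an unmeasured gene. Rbm3, Dnaja1, Dynll1 and Rsrp1 were called in all 6 lineages, and Nfkbia and Relb stand near 0 in B cells.

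Dynll1 and Rsrp1 were the other genes called in all 6 lineages. Dynll1, a light chain of the dynein motor, was read at 330 and 109 CPM in B cells, 269 and 87.4 in T cells, 321 and 104 in NK cells, 143 and 51.0 in neutrophils, 436 and 196 in monocytes and macrophages and 301 and 131 in dendritic cells. Every TNF value of Dynll1 was below the PBS value of the same lineage, with log2 ratios of -1.15 to -1.62. Rsrp1, which encodes an arginine- and serine-rich protein, was lower by more in myeloid cells. It went from 483 to 188 CPM in B cells (-1.36), 480.5 to 179 in T cells (-1.43), 538 to 259 in NK cells (-1.06), 801 to 144 in neutrophils (-2.48), 694 to 108 in monocytes and macrophages (-2.68) and 400.5 to 112 in dendritic cells (-1.84).

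The remaining shared lower genes were called in 4 or 5 lineages. Stk38, a kinase of the Hippo-related NDR family, was lower in T, NK and all 3 myeloid lineages (-1.09 to -2.18) and at -0.65 in B cells. Rasgrp2, an exchange factor for the adhesion GTPase Rap1, was at -1.77 in T cells, -1.90 in NK cells, -1.47 in neutrophils and -2.56 in monocytes and macrophages. Add3, an adducin of the membrane skeleton, was lower in B cells (-1.11), NK cells (-1.85), neutrophils (-1.14) and monocytes and macrophages, where 227 and 3 UMIs gave -5.27 (-7.55 to -3.70). Ahnak, a large scaffold protein, went from 1343 to 151 CPM in monocytes and macrophages (-3.15) and from 149 to 72.9 in T cells (-1.03). Glipr1 was lowest in neutrophils (-3.23) and stood above 0 in monocytes and macrophages (0.51). Akna, an AT-hook protein, Bin2, a membrane-bending BAR protein, Setd1b, a histone H3K4 methyltransferase, and Tsc22d4 were each called in T, NK and monocyte/macrophage cells and in 1 further myeloid lineage. The limit of the rule is the second-largest size in the weaker compartment, which was 1.02 for Setd1b and 1.01 for Tsc22d4, just inside, and 0.98 for Atf7ip and 0.97 for Otulinl, just outside. On the higher side Mapkapk2 stood just inside at 1.01 and Dennd4a just outside at 0.98.

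The last shared higher genes came from separate pathways. Sdhaf1, an assembly factor of succinate dehydrogenase, was higher in B cells (38.9 and 78.8 CPM, log2 1.02), T cells (2.22), NK cells (3.56), monocytes and macrophages (2.53) and dendritic cells (3.69). Bcl2l11, which encodes the death-promoting protein BIM, was read at 70.8 and 483 CPM in NK cells (2.77) and 15.9 and 412 in dendritic cells (4.69), and was also called in T cells (1.05) and neutrophils (1.61). In monocytes and macrophages Bcl2l11 was read at 49.4 and 28.0 CPM, too low to be measured. Gbp5, a guanylate-binding protein induced by interferon-gamma, went from 40.1 to 114 CPM in NK cells and stood at 1.62 in T cells, 2.48 in neutrophils and 2.88 in monocytes and macrophages. Arap2, a GTPase-activating protein for Arf6, was higher in B cells (131 and 334 CPM, 1.34), T cells (1.06), monocytes and macrophages (2.37) and dendritic cells (2.56). Rgs1, which shortens signalling by chemokine receptors, was higher in T (1.68) and NK cells (2.16), monocytes and macrophages (2.38) and dendritic cells (2.77).

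The mix of cells inside the monocyte and macrophage lineage differed between the libraries, and its part in the values above was not tested beyond the following split. Cells with more monocyte markers numbered 65 and 32, those with more macrophage markers 49 and 100, and the median depth was 14542 and 11101 UMIs per monocyte-gated cell and 1230 and 1052 per macrophage-gated cell. Nfkbia was higher in both parts (2.43 in monocyte-gated and 2.83 in macrophage-gated cells), as was Mapkapk2 (1.93 and 1.18). Tnfaip3 was at 4.06 in monocyte-gated cells and went from 0 to 76 UMIs in macrophage-gated cells. Dnaja1 was lower in both (-1.74 and -1.32). Rgs1 stood at 814 and 846 CPM in macrophage-gated cells (0.06) and at 1.04 and 99.9 CPM in monocyte-gated cells. Arap2 stood at 0.30 in macrophage-gated cells, Dynll1 at -0.44, and Rbm3 at 0.91 against 1.72 in monocyte-gated cells. With macrophage-gated cells in place of the lineage, 8 of the 13 shared higher and 6 of the 13 shared lower genes kept their call. With monocyte-gated cells 9 and 12 did. In macrophage-gated cells 914 genes had enough UMIs to be measured, against 3588 in monocyte-gated cells, so a lost call can also mean an unmeasured gene.

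The median log2 ratio of all measured genes was below 0 in each lineage, from -0.14 in T cells to -0.42 in neutrophils, and calls on the lower side outnumbered those on the higher side (2273 and 1108 over the 6 lineages, 32.8% higher). When each lineage was centred on its median (median-of-ratios scaling), 49.4% of calls were higher. All 13 shared higher genes and 7 of the shared lower genes kept their call then. Add3, Ahnak, Bin2, Setd1b, Stk38 and Tsc22d4 did not, while Dnaja1, Dynll1, Rsrp1, Chordc1, Rasgrp2, Akna and Glipr1 did. Over the 24 alternatives tried, Setd1b was shared under 9, Ahnak under 10, Mapkapk2 and Cirbp under 12, Tsc22d4 under 13 and Glipr1 under 14, and each other shared gene under 15 or more.

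**Figure D4:**
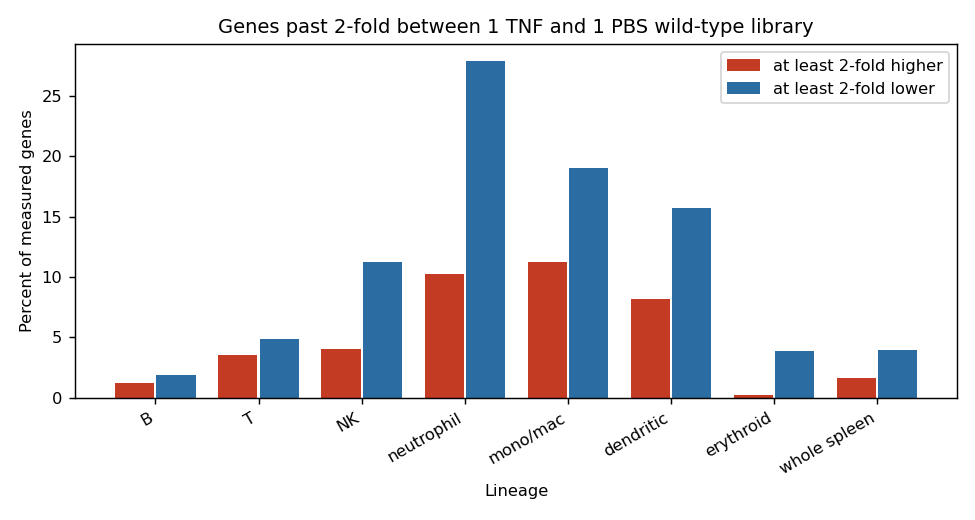
Bars give the percent of measured genes at least 2-fold higher (red) or lower (blue) in the TNF library in each wild-type lineage, in erythroid cells and in the whole spleen. B cells had the smallest shares among the 6 lineages (1.24% and 1.9%) and neutrophils the largest share of lower genes (27.9%).

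Genes called in a given direction in 1 compartment only were fewer on the lymphoid than on the myeloid side. Lymphoid-only genes were called in at least 2 lymphoid lineages and stayed under 1.5-fold that way in each measured myeloid lineage. There were 3 higher (0.151% of 1987) and 6 lower (0.302%), against 31 higher (1.56%) and 74 lower (3.72%) myeloid-only genes. A call in the other direction was allowed, so Ifngr1 counted both as lymphoid-only higher and as myeloid-only lower. Among the myeloid-only genes Tank and Gpr183 were lower in B cells, and H2afz, Cyfip2 and Foxp1 were called both ways within the myeloid lineages. The balance of directions depended on the scaling: with each lineage centred on its median there were 9 higher and 2 lower lymphoid-only genes, and 45 higher and 48 lower myeloid-only genes. The lymphoid-only higher genes belong to interferon and cytokine signalling. Ifngr1, a chain of the interferon-gamma receptor, went from 148 to 403 CPM in T cells (1.44) and from 620.4 to 1335 in NK cells (1.11), but from 678 to 277 in monocytes and macrophages (-1.29) and from 432 to 172 in dendritic cells (-1.33). Stat3 was at 1.11 in B cells and 1.12 in T cells, and at -0.59, -0.29 and 0.11 in the myeloid lineages. Irf1, an interferon-responsive transcription factor, was at 1.11 in T and 1.05 in NK cells and at -0.80 in neutrophils. Among the lymphoid-only lower genes, the transcription factor Klf3 was at -1.31 in B and -1.61 in T cells, and the integrin chain Itgb1 at -1.75 in T and -1.12 in NK cells. Itgb1 was higher in neutrophils (1.86).

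Among the myeloid-only higher genes Malt1, a protease that carries antigen-receptor signals to NF-kB, went from 51.8 to 236 CPM in neutrophils (2.19) and from 88.4 to 660.1 in monocytes and macrophages (2.90). In lymphocytes Malt1 stood at -0.52 in B, -0.48 in T and 0.24 in NK cells. Arl5c, a small GTPase, was at 3.04 in monocytes and macrophages and 3.54 in dendritic cells, and the transcription repressor Etv3 at 1.75 and 2.89. Tes, an actin-linked LIM protein, was at 1.77 in neutrophils and 1.88 in monocytes and macrophages, and Mkrn1, a ubiquitin ligase, at 1.73 in monocytes and macrophages and 3.03 in dendritic cells. On the lower side Gng2, a G-protein gamma subunit, was at -3.77 in neutrophils, -3.45 in monocytes and macrophages and -2.79 in dendritic cells, and between -0.45 and -0.04 in lymphocytes. Il16, a chemoattractant precursor, went from 111 to 7.48 CPM in monocytes and macrophages (-3.89), and in dendritic cells 49 and 1 UMIs gave -4.99 (-10.32 to -2.45). Hist1h1c, a linker histone, Ssh2, a cofilin phosphatase, and Stx16, a syntaxin, were also myeloid-only and lower.

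Some genes were called in opposite directions in lineages of the 2 compartments. A call in 1 lymphoid and 1 myeloid lineage was enough here, with every called lineage of a compartment going the same way. Of 2837 genes, 16 were higher in lymphoid and lower in myeloid lineages (0.564%), and 22 the reverse (0.775%). Irf8, the transcription factor that dendritic cells need, was at 396 and 1361 CPM in NK cells (1.78) but went from 1304 to 49.1 CPM in dendritic cells (-4.73) and from 190.1 to 50.5 in monocytes and macrophages (-1.91). The summed CPM of the 12 dendritic markers was 3264 in the PBS and 1323 in the TNF library, with none at 0, and the part of that in the Irf8 value was not tested. Il4i1, an amino-acid oxidase of activated antigen-presenting cells, went from 75.2 to 24.0 CPM in B cells (-1.65). It went from 15.9 to 420.1 in dendritic cells (4.72) and from 0 to 152 UMIs in monocytes and macrophages, at least 99.7-fold higher against a floor of 3 UMIs. Ccl3, a chemokine that attracts leukocytes, went from 215 to 37.9 CPM in NK cells (-2.50) and from 12.3 to 134 in neutrophils (3.45). Pdgfb, a chain of platelet-derived growth factor, was at -1.84 in NK cells and 2.64 in monocytes and macrophages. Crip1, a small LIM protein, was at -1.01 in T cells and 3.67 in neutrophils, where it rests on 6 and 45 UMIs. Tspan13, a tetraspanin, was at 1.04 in NK cells and -4.32 in neutrophils.

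Type I interferon and glucocorticoid target genes were called in both directions, by lineage. Of 36 type I interferon-stimulated genes, 5 of 18 measured in T cells were higher (Isg15, Irf7, Rtp4, Zbp1 and Ly6a; list median 0.61) against 3.51% of all genes, while 12 of 24 in neutrophils were lower and none higher (median -0.98 against -0.42 for all genes, of which 27.9% were lower). In monocytes and macrophages 7 of 22 were lower, against 19% of all genes, and Isg15 was higher as in T cells. Rtp4, a chaperone of receptors, was at 1.27 in T cells and -1.08 in neutrophils. Of 27 glucocorticoid-responsive genes, 7 of 14 in B cells were higher (median 0.92) against 1.24% of all genes, among them Fkbp5, a regulator of the glucocorticoid receptor (24.8 and 144 CPM, 2.54), and Tsc22d3, which encodes GILZ (1.08). In neutrophils 2 of 14 were higher, Fkbp5 (1.47) and Per1, and 6 lower, with Tsc22d3 at -1.57, against 10.2% and 27.9% of all genes. Calls in the other lineages did not share one direction. In monocytes and macrophages 4 of 17 were higher and 5 lower (median 0.05), against 11.2% and 19% of all genes. In dendritic cells 4 of 12 were higher and 1 lower (0.42), against 8.17% and 15.7%. In T cells 1 of 14 was higher and 1 lower (0.29), against 3.51% and 4.86%. In NK cells 1 of 10 was higher and 0 lower (0.42), against 3.99% and 11.2%. The medians over all genes were -0.21, -0.16, -0.14 and -0.15 in the same order, each below the list median. Fkbp5 was higher in T cells too (1.26) but missed the shared rule, with 0.52 and 0.83 in the other myeloid lineages. Junb, an AP-1 subunit, was higher in all 3 lymphoid lineages (1.32, 1.90 and 1.06) and stood at -0.09, 0.25 and 0.76 in the myeloid ones.

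Genes called in a single lineage, out of at least 4 in which they were measured, numbered 106 higher (4.75% of 2230) and 151 lower (6.77%). Of the higher ones 48 were in neutrophils, 24 in monocytes and macrophages and 19 in dendritic cells. NK, T and B cells held 11, 3 and 1. The shares of all measured genes called higher were 10.2%, 11.2%, 8.17%, 3.99%, 3.51% and 1.24% in the same order. Counts and shares were thus both larger in the myeloid lineages. Of the 48 in neutrophils 10 were mitochondrial and 7 ribosomal protein genes, and the part of RNA quality in that count was not tested. Of the lower ones 59 were in monocytes and macrophages, 44 in neutrophils and 27 in dendritic cells. NK, B and T cells held 20, 1 and 0. The shares of all measured genes called lower were 19%, 27.9%, 15.7%, 11.2%, 1.9% and 4.86% in this order. Ddit4, an inhibitor of mTOR signalling, was the 1 in B cells on the higher side (63.5 and 142 CPM, 1.16), and Ms4a4c the 1 on the lower side (228 and 99.9 CPM, -1.19). Ifngr2, the partner chain of the interferon-gamma receptor, was called in T cells alone (1.60). Other single-lineage higher genes were Uqcc2 in NK cells (1.35), Tcea1 in neutrophils (2.53), H2-Q7 in monocytes and macrophages (2.30) and Rab21 in dendritic cells (2.06). The smaller cell numbers of NK cells (67 and 69), neutrophils (158 and 81) and dendritic cells (35 and 47) widen the counting interval of each of these values, while B cells (1239 and 2917) and T cells (456 and 1073) were the deepest.

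In the whole spleen, where all kept cells were summed, 45 of 2735 measured genes were higher (1.65%) and 107 lower (3.91%). Median-of-ratios scaling gave 70 higher and 69 lower, and leaving haemoglobin, immunoglobulin, ribosomal and mitochondrial genes out of the CPM total gave 97 and 118, so the excess of lower genes depends on the scaling. Of these, 7 of the 45 and 10 of the 107 were shared genes, which is 7 of the 13 shared higher and 10 of the 13 shared lower genes. Nfkbia went from 205 to 388 CPM (0.92), Relb from 41.4 to 79.1 (0.93) and Mapkapk2 from 37.9 to 69.0 (0.87), so these genes did not reach 2-fold in the sum. B cells were 49.5% of the PBS and 55.5% of the TNF cells. They held 8.83e+06 of 2.32e+07 UMIs in the PBS and 1.43e+07 of 3.23e+07 in the TNF library. Their part in these values was not tested. Rbm3 went from 159 to 643 CPM (2.02), Cirbp from 33.9 to 175 (2.36) and Dnaja1 from 344 to 135 (-1.35). Outside immunoglobulin genes, which were not named, the largest whole-spleen ratios belonged to Saa3, an acute-phase protein (3.66), Thbs1 (3.17), the chemokine Cxcl2 (3.11) and Cd14 (3.03). On the lower side they were F13a1 (-4.58), Ccl6 (-3.65), the monocyte chemokine receptor Ccr2 (-3.47) and Fgl2 (-3.45). Neutrophils were 6.31% of the PBS and 1.54% of the TNF cells, and in a sum over cells a smaller number of a cell type and less RNA per cell cannot be told apart. With each lineage's share of the UMIs held at that of the PBS library, 39 of the 45 higher and 63 of the 107 lower genes remained past 2-fold. Monocytes and macrophages count as 1 lineage there, so the smaller part of monocyte-gated cells within it stays in values such as those of F13a1 and Ccr2.

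Erythroid cells were not used to choose the shared genes, though they come from the same libraries. Among 1181 genes measured in them, 3 were higher (0.254%) and 46 lower (3.9%). Both shared higher genes measured there were higher: Rbm3 from 115 to 255 CPM (1.14, 0.99 to 1.30) and Gm2000 from 21.9 to 52.0 (1.25). Of 4 shared lower genes measured, Dnaja1 was lower (102 to 38.6 CPM, -1.40), Dynll1 and Rsrp1 stood at -0.71 and -0.80, and Tsc22d4 at 0.31. Nfkbia (4.63 and 22.2 CPM) and Relb (2.32 and 3.07 CPM) were too low in erythroid cells to be measured. In erythroid cells 6 of 18 heat-shock genes were lower, with a median of -0.91 against -0.22 over all genes. In erythroid cells of the pair labelled TRIF-KO none of the 4 shared genes measured was called, where 0.593% of all genes were higher and 0% lower, and Rbm3 stood at 0.18.

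The pair labelled TRIF-KO gave the same measure in libraries the rule had not used, again with 1 library per group. Ticam1, the gene named by the label, was read at 8.32 and 5.77 CPM in the PBS and TNF libraries labelled TRIF-KO; where in the transcript these UMIs fall is not given, so they do not check the label. By the same rule 7 of 1906 genes were shared higher (0.367%) and 0 shared lower (0%) in that pair. Of the 13 wild-type shared higher genes 5 were among the 7: Nfkbia, Tnfaip3, Relb, Sdhaf1 and Arap2. Relb was at 1.20 in T cells, 1.87 in NK cells, 3.65 in neutrophils, 2.42 in monocytes and macrophages and 1.82 in dendritic cells, and at 0.28 in B cells. Nfkbia was at 1.08, 1.90, 2.29, 1.51 and 1.08 in the same order and at -0.01 in B cells, so that neither gene was called in B cells of this pair. Of the NF-kB list in the pair labelled TRIF-KO, 0 of 14 measured were higher in B cells, where 1.19% of all genes were, and 5 of 11 in T, 7 of 15 in NK, 16 of 26 in neutrophils, 18 of 28 in monocytes and macrophages and 11 of 20 in dendritic cells were higher (all genes 1.64%, 3.24%, 8.44%, 10.5% and 8.21%).

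The cold-inducible and heat-shock groups gave few calls in that pair. In the pair labelled TRIF-KO Rbm3 stood at 0.95 in B cells, 0.83 in T cells, 1.01 in NK cells, -0.27 in neutrophils, 0.92 in monocytes and macrophages and 0.62 in dendritic cells, of which only the NK value was a call. Cirbp stood at 0.71 in B and 0.72 in T cells and at -0.16 in NK cells. Dnaja1 was below 0 in all 6 lineages, from -0.43 to -1.02, and was called in neutrophils alone. Of the heat-shock list none of 25 measured in B cells and none of 24 in T cells was lower, against 0.396% and 0.681% of all genes. In the other lineages of that pair 1 of 26 was lower in NK cells (all genes 6.02%), 3 of 11 in neutrophils (28.6%), 0 of 24 in monocytes and macrophages (11.7%) and 4 of 22 in dendritic cells (8.26%). In monocytes and macrophages of that pair 5 of 24 were higher (all genes 10.5%), where in wild type 9 of 27 were lower (all genes 19%). Over the lineages measured in both pairs, the median log2 ratio had the same sign in both for 12 of 13 shared higher and 13 of 13 shared lower genes, and was larger in wild type for 11 and 12 of them. Gm2000 was the exception in sign (1.45 in wild type and -0.50 in the other pair). The genes were chosen by their size in wild type, so a smaller size in the other pair is a description and no test of a difference between genotypes. Depth moved in opposite ways in the 2 pairs. Median UMIs per kept cell were 6978 and 4768 in the wild-type PBS and TNF libraries and 4499 and 7351 in those labelled TRIF-KO. Barcodes over 10% mitochondrial UMIs were more frequent in the TNF library of both pairs. They were 6.26% and 22.4% in wild type, and 10.8% and 11.6% in the pair labelled TRIF-KO. The part of depth and quality in these values was not tested.

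**Figure D5:**
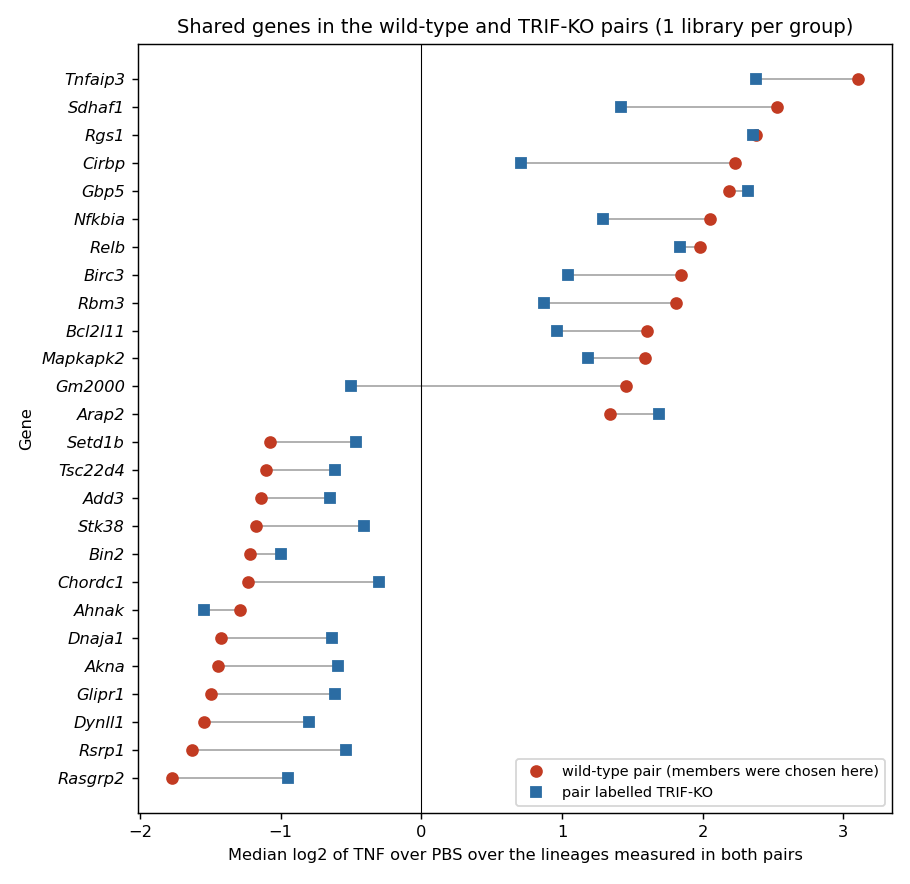
For each of the 26 shared genes, the median log2 ratio over the lineages measured in both pairs, in wild type (red circles, where the genes were chosen) and in the pair labelled TRIF-KO (blue squares). Relb and Rgs1 lie close together in both pairs, Rbm3, Cirbp and Dnaja1 are nearer 0 in the pair labelled TRIF-KO, and Gm2000 changes sign.

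The marker check and the sharing of barcodes bear on all values. The marker lists are those that assigned the cells. High sums of a lineage's own markers and low sums of the others thus follow in large part from the gate. Each lineage's own markers had UMIs in both libraries with none at 0, and their summed CPM in the TNF library was the lower one in every lineage: 10095 and 8460 in B cells, 6092 and 4797 in T cells, 19981 and 14085 in NK cells, 27033 and 20522 in neutrophils, 10003 and 8544 in monocytes and macrophages and 3264 and 1323 in dendritic cells. The gap was widest in dendritic cells. In B cells the 15 monocyte and macrophage markers summed to 266 and 126 CPM and the 12 T-cell markers to 16.1 and 33.0. In monocytes and macrophages the 12 B-cell markers summed to 76.0 and 103 CPM and the 12 neutrophil markers to 697 and 699, while the 12 dendritic markers went from 404 to 972 CPM and the 12 T-cell markers from 3.80 to 39.3. The part of these shifts in the monocyte and macrophage values was not tested. The wild-type libraries shared 3 cell barcodes.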

How the data were processed

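Droplet single-cell RNA libraries of spleen were analysed as 1 library per group, 4 in all. The values used are whole-number UMI counts per gene and barcode, which the authors deposited as filtered matrices of 32285 features. The submitters' processing notes name Cell Ranger 3.0, Seurat 4.1.1 and mm10, while Cell Ranger 6.0.1 stands in the matrix file header. Total UMIs per library were 23614028 and 34774147 in wild-type PBS and TNF, and 33771809 and 67276803 in the libraries labelled TRIF-KO.

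From these counts, the share of each list's markers that were detected was taken per kept barcode. A barcode was gated to the lineage with the highest share when at least 3 of its markers were detected. No other list could exceed 50% of that share (75% between T and NK and among the myeloid lists). Cells that met several lists (135 and 212 in wild type) were left out, which also removes doublets of different types; no doublet caller was run. UMIs were summed per lineage and given as CPM. A gene was measured with at least 50 UMIs over both libraries and at least 50 CPM in 1 of them. It was not measured in a lineage where its CPM was under 5% of that of the highest lineage, a level free RNA can give. Intervals are exact conditional 95% intervals of the ratio and exact Poisson intervals of a level. They cover counting error only. A gene with 0 UMIs in a library was set against a floor of 3. Single-lineage genes were measured in at least 4 lineages, called in 1, and under 1.5-fold that way in the others.

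Named genes were up to 15 shared higher and 12 shared lower, up to 5 per direction of the lymphoid-only and myeloid-only genes, 1 per lineage and direction of the single-lineage genes, 6 opposite ones, 4 per direction of the whole spleen and up to 6 members of each of 18 lists. Ribosomal, mitochondrial, immunoglobulin, haemoglobin, T-cell-receptor, sex-linked (Xist, Tsix and Y-linked) and predicted genes were left out. Gm2000, Tsc22d4, Nfkb2, Socs3 and further list members are named after their values were seen. The members, rules and lists were chosen with earlier results of these data known. Promoters of 27025 symbols came from RefSeq, GRCm38.p6, and were searched for 6 motifs on both strands. The steps were tested on simulated counts and run in Python 3.11.15 with numpy 2.4.6, pandas 2.3.3, scipy 1.17.1 and matplotlib 3.10.9. Alternatives changed the scaling, the minimum counts, the fold, the gates and the lineages used.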

Additional observations from a re-analysis of the deposited data

Results flagged for a closer look

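Genes called in opposite directions in lymphoid and myeloid lineages of wild type had the following gaps, each the mean log2 ratio over the lymphoid lineages past 2-fold minus that over the myeloid lineages past 2-fold. The gap was -7.33 for Il4i1, 5.36 for Tspan13, 5.10 for Irf8, -5.96 for Ccl3, -4.68 for Crip1 and -4.48 for Pdgfb. The value of Il4i1 rests in part on a floor of 3 UMIs in monocytes and macrophages. These differences between compartments were not tested, since each rests on 1 library per group.

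In monocytes and macrophages Gm2000 was called higher in the wild-type pair (log2 1.05) and lower in the pair labelled TRIF-KO (-1.11), a difference of 2.16 that was not tested.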

How the results depend on the processing

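No paired analysis was possible because each group has 1 library. The main counts were 13 shared higher, 13 shared lower, 9 lymphoid-only, 105 myeloid-only, 257 single-lineage, 38 opposite-direction and 152 whole-spleen genes. Median-of-ratios scaling gave 20 shared higher and 7 shared lower genes. A minimum of 10 UMIs alone gave 41 shared lower, 34 lymphoid-only, 346 myeloid-only, 765 single-lineage, 185 opposite-direction and 2041 whole-spleen genes. A minimum of 100 UMIs and 100 CPM gave 5, 6, 4, 43, 87, 19 and 75 in the order of the main counts, a 1.5-fold size gave 24, 95, 51, 264, 555, 142 and 466, and a 3-fold size gave 7, 0, 0, 26, 60, 10 and 51. Leaving out the 5% of cells with most UMIs gave 8 shared higher genes. Without NK cells there were 5 shared higher, 4 shared lower and 2 lymphoid-only genes, without neutrophils 7 shared lower and 52 myeloid-only, and without dendritic cells 6 shared higher and 56 myeloid-only. Macrophage-gated cells alone gave 8 shared higher, 7 shared lower and 45 myeloid-only genes. Among alternatives chosen after seeing the data, leaving out T cells gave 4 shared higher, 5 shared lower and 0 lymphoid-only genes, leaving out monocytes and macrophages 6, 5 and 29 myeloid-only genes, and median-of-ratios scaling with a 1.5-fold size 40, 35, 55, 259, 644, 146 and 364 in the order of the main counts. Fewer lineages leave fewer ways to meet the rule; for the other settings the cause was not tested. The other 105 counts, pooled over direction for all but the shared genes, stayed within 1.5 times of the main ones; by direction they did not always, as lymphoid-only higher genes numbered 3 in the main analysis and 9 under median-of-ratios scaling. Rbm3, Dnaja1, Dynll1 and Rsrp1 were shared under 23 of 24 alternatives, lost at 3-fold, Nfkbia under 22, Relb under 20 and Tnfaip3 under 19, and Setd1b, the least stable, under 9. Depth limits the NK, neutrophil and dendritic values most.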
